A study of Mus musculus with 46 samples.

Results

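The genes described here are 44 cell cycle and DNA replication genes, taken from a list of symbols and measured in mouse lung during exposure to 100% oxygen. A gene was a member when the array annotation gave its symbol to a probe set, a group of short probes that read one transcript, and the brightest probe set stood for the gene. By this rule 43 of the 44 genes were on the arrays, of 15964 genes in all with a probe set of a single symbol. The mitotic cyclin gene Ccnb1 was not matched. Of the 43, 31 were bright enough to be tested and 12 were not.

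Whole lung RNA was compared between wild type mice and mice labelled as mutated in Nrf2, the gene of a transcription factor that activates antioxidant defence. Both genotypes were taken at 0 h, before oxygen, and after 24, 48 and 72 h in 100% oxygen, which gave 8 groups. No strain, age or kind of mutation is stated in the labels. Replicates 1a and 1b of each group were put on array types A, B and C, for 46 arrays in all. On type A only replicate 1b was analysed here for 2 groups, namely mutant 0 h and wild type 24 h. Of the tested genes, 21 lay on type A and 10 on type C, so most comparisons with these 2 groups rest on 1 array on that side, which the fit assumes to vary like the others. Nothing in the labels ties 1a and 1b to different animals, and p-values therefore measure only the spread between these samples.

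A dividing cell makes cyclins in a fixed order, and each cyclin switches on a kinase that starts the next step. In late G1 the factor E2F1 raises the genes for S phase, the MCM helicase is loaded at replication origins, and polymerases with their clamp PCNA copy the DNA. In M phase the kinase CDK1 with B cyclins drives the cell into mitosis, and the spindle checkpoint holds it until every chromosome is attached. Most cells of the adult lung are not dividing, and high oxygen is known to damage DNA and halt the cycle through p53 and its target p21, encoded by Cdkn1a.

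Few of the 31 tested genes were called, and those that were called were mainly lower in oxygen. In wild type 3.23% and 6.45% of them were called at 48 and 72 h, against 6.64% and 7.83% of all probe sets. In the mutant 16.1%, 6.45% and 9.68% were called at 24, 48 and 72 h, against 24.4%, 17.9% and 21.5% of all. The spindle checkpoint gene Mad2l1 was 2.0-fold lower in wild type at 48 h and 2.35-fold to 3.15-fold lower in the mutant at all 3 times. The microtubule regulator gene Stmn1 was lower in wild type at 72 h and in the mutant at all 3 times, with a call at 48 h that held under 3 of 9 alternatives, and the mitotic cyclin gene Ccnb2 was lower in wild type at 72 h. The replication clamp gene Pcna was lower in the mutant at 24 h, and the helicase genes Mcm2 and Mcm3 were higher there than on the mutant's own 0 h array. No member was called between genotypes at any time, where the test called 0.157% to 2.75% of all probe sets. In the same RNA Cdkn1a was higher at every oxygen time in both genotypes.

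Of these 6 members, 5 have an entry in the RefSeq promoter table for GRCm38.p6, and the 250 bases before their annotated start are shown because these are the genes whose signal moved. Ccnb2 (gene ID 12442) lies on chromosome 9 at 70407689 to 70421554, and the window printed is chr9:70421555-70421804 on the minus strand. Mad2l1 (gene ID 56150) lies on chromosome 6 at 66535221 to 66541107, with the window chr6:66534971-66535220 on the plus strand. Pcna (gene ID 18538) lies on chromosome 2 at 132249286 to 132253180, with the window chr2:132253181-132253430 on the minus strand. Mcm2 (gene ID 17216) lies on chromosome 6 at 88883474 to 88898780, with the window chr6:88898781-88899030 on the minus strand. Mcm3 (gene ID 17215) lies on chromosome 1 at 20802966 to 20820312, with the window chr1:20820313-20820562 on the minus strand. Stmn1 (gene ID 16765) lies on chromosome 4 at 134468320 to 134473843. The sequences run 5′ to 3′ along the gene, and capitals mark the letters CCAAT, known as the CCAAT box, and TTTGAA, known as the CHR element of late cell cycle genes, on either strand.
Ccnb2: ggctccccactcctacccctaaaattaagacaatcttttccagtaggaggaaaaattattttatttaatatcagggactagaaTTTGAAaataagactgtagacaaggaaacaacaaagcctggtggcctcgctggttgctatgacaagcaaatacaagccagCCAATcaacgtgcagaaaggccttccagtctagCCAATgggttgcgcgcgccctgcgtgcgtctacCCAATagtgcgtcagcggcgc
Mad2l1: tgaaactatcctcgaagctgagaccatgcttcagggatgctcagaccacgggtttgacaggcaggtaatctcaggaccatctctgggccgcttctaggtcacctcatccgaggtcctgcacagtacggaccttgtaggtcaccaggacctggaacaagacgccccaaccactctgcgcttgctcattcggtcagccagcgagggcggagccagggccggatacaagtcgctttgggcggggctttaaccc
Pcna: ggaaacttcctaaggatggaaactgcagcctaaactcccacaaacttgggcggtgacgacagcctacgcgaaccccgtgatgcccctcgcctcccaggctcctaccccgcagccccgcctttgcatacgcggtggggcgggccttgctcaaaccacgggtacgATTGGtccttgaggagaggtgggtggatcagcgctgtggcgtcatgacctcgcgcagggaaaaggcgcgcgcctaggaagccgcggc
Mcm2: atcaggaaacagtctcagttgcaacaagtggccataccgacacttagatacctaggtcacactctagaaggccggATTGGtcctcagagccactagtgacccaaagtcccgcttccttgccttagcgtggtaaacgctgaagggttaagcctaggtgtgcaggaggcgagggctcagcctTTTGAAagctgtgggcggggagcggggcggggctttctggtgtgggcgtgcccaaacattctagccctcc
Mcm3: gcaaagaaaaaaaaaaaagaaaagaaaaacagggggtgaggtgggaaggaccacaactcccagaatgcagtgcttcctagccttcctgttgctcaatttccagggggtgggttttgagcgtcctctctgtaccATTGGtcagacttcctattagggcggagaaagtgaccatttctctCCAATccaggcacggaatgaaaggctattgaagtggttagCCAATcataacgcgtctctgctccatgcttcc

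The Ccnb2 window held 3 CCAAT boxes, which lay 87, 54 and 21 bases before the start by their first base, and 1 TTTGAA. The Mcm3 window held 3 CCAAT boxes, the Mcm2 window 1 CCAAT box and 1 TTTGAA, and the Pcna window 1 CCAAT box. The Mad2l1 window held none of these letters. Of the 38 members in the table, 27 (71.1%) had CCAAT, against 34.5% of all 27025 promoter windows of the same length. TTTGAA was in 12 (31.6%) against 16.3% of all windows. The E2F word in its forms TTTCCCGC, TTTGGCGC, TTTCGCGC or TTTGCCGC, was in 6 member windows (15.8%) against 1.91% of all, and in none of the 5 printed. Both strands were searched, the motifs differ in letters so that none contains another, and a match is a description of letters only.

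Values below are deposited intensities, linear and scaled by the authors to a common mean. The filter value, the 40th percentile of an array type, was 195 on A and 211 on C, and a probe set was tested when at least 2 arrays lay above it. The tested members therefore include genes above it in few groups, such as Pola1 and Tyms with 2 groups each. Of the 43, 19 lay above it on every array and 9 on no array. The untested genes included 4 M phase genes, namely the checkpoint kinase genes Bub1 and Bub1b, the Aurora kinase gene Aurka, and Birc5. Also untested were 5 genes of spindle motors or chromosome structure, namely Top2a, Kif11, Kif20a, Kif2c and Kif4. The others were the checkpoint kinase gene Chek1, the primase gene Prim1 and the ribonucleotide reductase gene Rrm2. No untested gene exceeded 224 on any array. Nothing is said of the change of the untested genes.

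**Figure D1:**
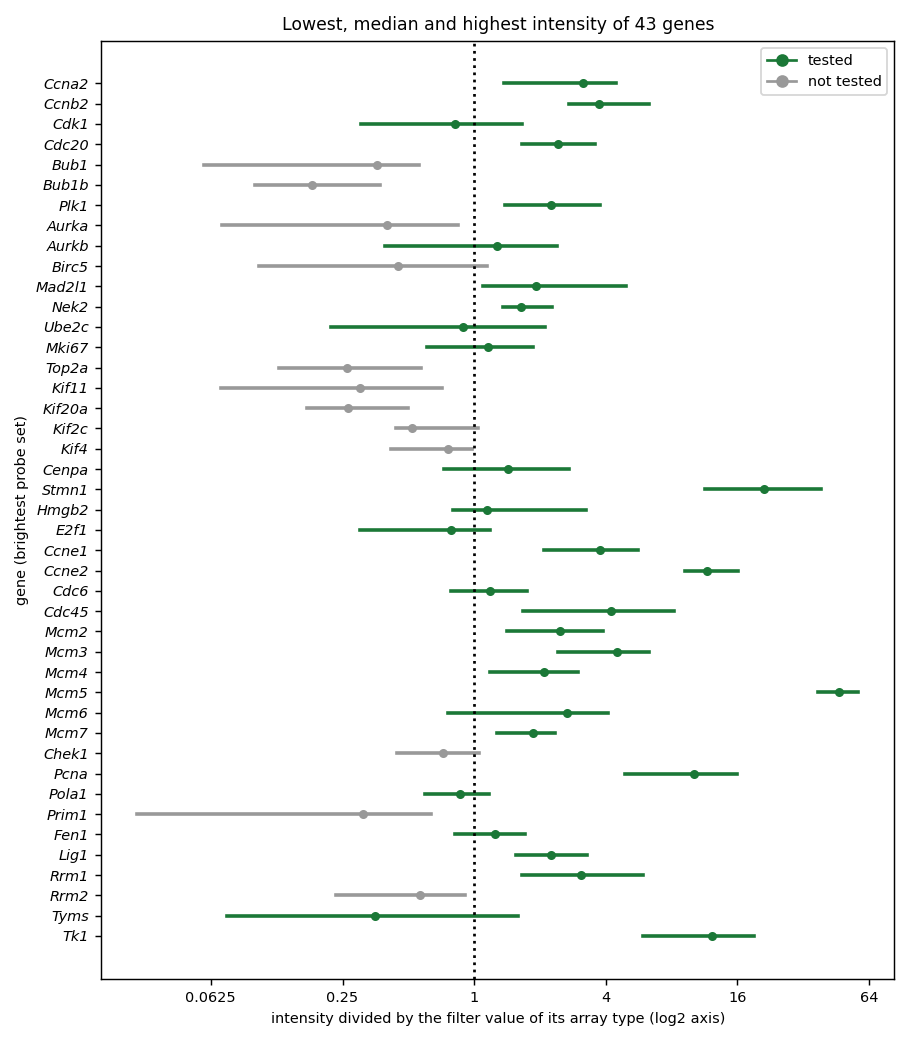
Lowest, median and highest intensity of the brightest probe set of each of 43 genes over all arrays of its type, divided by the filter value of that type, on a log2 axis. Green genes were tested and grey genes were not, and the dotted line at 1 is the filter value; the 12 untested genes lie almost wholly to its left.

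Of the 31 tested genes, 10 had their highest group mean in wild type at 0 h, 8 in the mutant at 24 h, 6 in wild type at 48 h, 6 in the mutant at 0 h and 1 in wild type at 24 h. The lowest group was wild type at 72 h for 6 genes, the mutant at 0, 24 and 72 h for 5 each, wild type at 24 h and the mutant at 48 h for 4 each, and wild type at 0 h and 48 h for 1 each. These counts describe the order of means and carry no test.

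Mutant 0 h arrays differed from all other arrays in several measures. Their mean correlation with the arrays of other groups was 0.82 to 0.856, against 0.878 to 0.94 for the other arrays, and the ratio of 3′ to 5′ signal of Gapdh, which reflects RNA quality, was 1.67 to 2.26 against 0.858 to 1.54. Skeletal muscle markers summed to 26937 over 5 genes on the type A array of this group, against 648 to 2793 on all others. Squamous epithelium markers summed to 21838 over 7 genes, against 2080 to 3345. On type B squamous markers also stood apart (8309 and 10034, others up to 3420). On type C they did not (631 and 1064, others 267 to 1100). Muscle markers of type C, 19770 and 25572, overlapped the others, which reached 19908. The member calls in the mutant on brightest probe sets are therefore also given against wild type at 0 h, the changes of other genes are not, and the part of these differences in the results was not tested. Of the 77 marker genes on the arrays, 0 were listed at 0 on any array. Nfe2l2, which encodes NRF2, lay between 2428 and 4488 in wild type and between 303 and 448 in the mutant, and it was lower in the mutant at every time (log2 -2.31, -3.0, -3.06 and -3.17 at 0, 24, 48 and 72 h by limma, adjusted p from 8.2e-05 to 0.00164).

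Which members changed in wild type lung under oxygen was asked first, as log2 differences from 0 h with limma's standard error. Mad2l1, whose product blocks the exit from mitosis until chromosomes are attached, was lower at 48 h. Its intensity in wild type was 681 and 652 at 0 h, 371 at 24 h, 266 and 324 at 48 h, and 402 and 468 at 72 h. Both 0 h arrays lay above every wild type array in oxygen. The fall at 48 h was 2.0-fold (log2 -1.0 ± 0.21, adjusted p = 0.0218 by limma), while 24 h (log2 -0.73, adjusted p = 0.217) and 72 h (log2 -0.54, adjusted p = 0.17) did not pass.

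Ccnb2, a B cyclin that pairs with CDK1, was lower at 72 h. Its intensity was 1228 and 1067 at 0 h, 667 at 24 h, 768 and 778 at 48 h, and 644 and 612 at 72 h. All 5 oxygen arrays lay below both 0 h arrays. The fall at 72 h was 1.73-fold (log2 -0.79 ± 0.17, adjusted p = 0.0167 by limma), and the values at 24 h (log2 -0.72, adjusted p = 0.12) and 48 h (log2 -0.52, adjusted p = 0.094) did not pass.

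Stmn1 encodes stathmin, which destabilizes microtubules and is made in proliferating cells. Its intensity in wild type was 5715 and 7232 at 0 h, 4821 at 24 h, 5147 and 4730 at 48 h, and 2750 and 3147 at 72 h. The 72 h arrays lay below all others of wild type. The fall at 72 h was 2.15-fold (log2 -1.11 ± 0.21, adjusted p = 0.0103 by limma). Stmn1 was also the 1 member called by limma's F test over the wild type times (adjusted p = 0.0398), a test that called 6.95% of all probe sets. That F test called 0 members without any 1 replicate of wild type 0, 48 or 72 h or mutant 24 h, and 2 without any 1 replicate of mutant 0 h or 72 h. Without wild type 24 h replicate 1b the members on type A, Stmn1 among them, have no value in that test.

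Cdk1, the kinase that starts mitosis, came close without passing. Its intensity was 324 and 277 at 0 h, 169 at 24 h, 59.1 and 69.8 at 48 h, and 193 and 77.8 at 72 h. The 0 h arrays were the only wild type arrays above the filter value, so no fold is given (log2 -1.41 ± 0.38, adjusted p = 0.0531 at 48 h by limma). Tk1, a thymidine kinase of nucleotide supply, had 4029 and 2566 at 0 h, 1254 and 1939 at 48 h, and 1454 and 1660 at 72 h. The arrays of 48 h and 72 h lay below those of 0 h (log2 -0.99 and -1.0, adjusted p = 0.0765 and 0.068 by limma). The identifier of this Tk1 probe set has the letter r, described below for Mcm5, and its other probe sets differed from it. The next brightest had log2 -0.36 and -0.01 at 48 and 72 h (adjusted p = 0.531 and 0.986 by limma). Dimmer ones had log2 -1.19 and -0.63, and log2 0.51 and -0.04, none called. Pcna, the sliding clamp of the replicating polymerases, was 1943 and 2811 at 0 h, 1353 and 1435 at 48 h, and 2126 and 2881 at 72 h, so that 72 h overlapped 0 h (log2 0.08) and 48 h did not (log2 -0.72, adjusted p = 0.103 by limma).

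Mki67, the usual marker of cells in cycle, was dim and did not pass at any wild type time. Its intensity in wild type was 342 and 210 at 0 h, 220.5 at 24 h, 215 and 299 at 48 h, and 245 and 118 at 72 h. Each time overlapped 0 h (log2 -0.07 at 48 h and -0.47 at 72 h). The identifier of this Mki67 probe set has the letter r as well. The other Mki67 probe set lay above the filter value on 0 of 14 arrays. Mcm2, a subunit of the helicase that opens origins, was 449 and 344 at 0 h and 494 and 434 at 72 h, which overlap (log2 0.20, adjusted p = 0.641 by limma). Of the 9 tested M phase genes, 1 was lower at 48 h and 1 at 72 h, and 0 were higher. Of the 4 tested genes of chromosome structure and general proliferation, 1 was lower at 72 h. None of the 11 tested genes of S phase entry and origins and none of the 7 of DNA synthesis was called at a wild type time.

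In all, wild type had 0 members called at 24 h, 1 lower at 48 h and 2 lower at 72 h by limma. At 24 h limma called 1.72% of all 26833 probe sets, and at an unadjusted p under 0.05 there were 3 members, against 14.9% of all probe sets. At 48 h it called 6.64%, with 3.39% lower, and the members' share was 3.23%. At 72 h it called 7.83%, with 3.57% lower, against 6.45% of the members, so the share of members called was near the background at both times. The median log2 difference of the tested members was -0.23, -0.05 and -0.33 at 24, 48 and 72 h, against -0.06, -0.03 and -0.06 for all probe sets tested, and 24, 19 and 23 of the 31 had a value below 0. From 24 h to 72 h, 0 members were called (background 1.5%), and 2 had an unadjusted p under 0.05 (background 13.6%). The count at 48 h was 0 without either replicate of wild type 0 h or 48 h, and 2 without either replicate of wild type 72 h or mutant 24 h. At 72 h it was 0 when replicate 1b of the 0 h group or replicate 1a of the 72 h group was left out, and it was 1 when the other replicate of either was.

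Lymphocyte markers moved in the same arrays. Of 9 tested T, NK and B cell markers, 7 were lower in wild type at 48 h and 7 at 72 h. Their sum over 8 genes of type A was 17769 to 18002 at 0 h and 5852 to 8773 in the 5 oxygen arrays. In the mutant the same sum was 11455 on the 0 h array and 5189 to 10011 in the 6 oxygen arrays. Of 12 tested neutrophil markers, 7 were higher in wild type at 48 h and 6 at 72 h. Of all probe sets, 6.64% and 7.83% were called in wild type at 48 and 72 h in either direction, with 3.39% and 3.57% lower. The neutrophil sum on type A in wild type was 13405 and 14013 at 0 h, 14523 at 24 h, and 24853 to 27365 at 48 and 72 h. In the mutant it was 16933 on the 0 h array, 28846 and 28592 at 24 h, and 12229 to 16046 at 48 and 72 h. The part of these shifts in the members' values was not tested. In whole lung RNA, fewer cells of a type and less RNA per cell cannot be told apart.

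**Figure D2:**
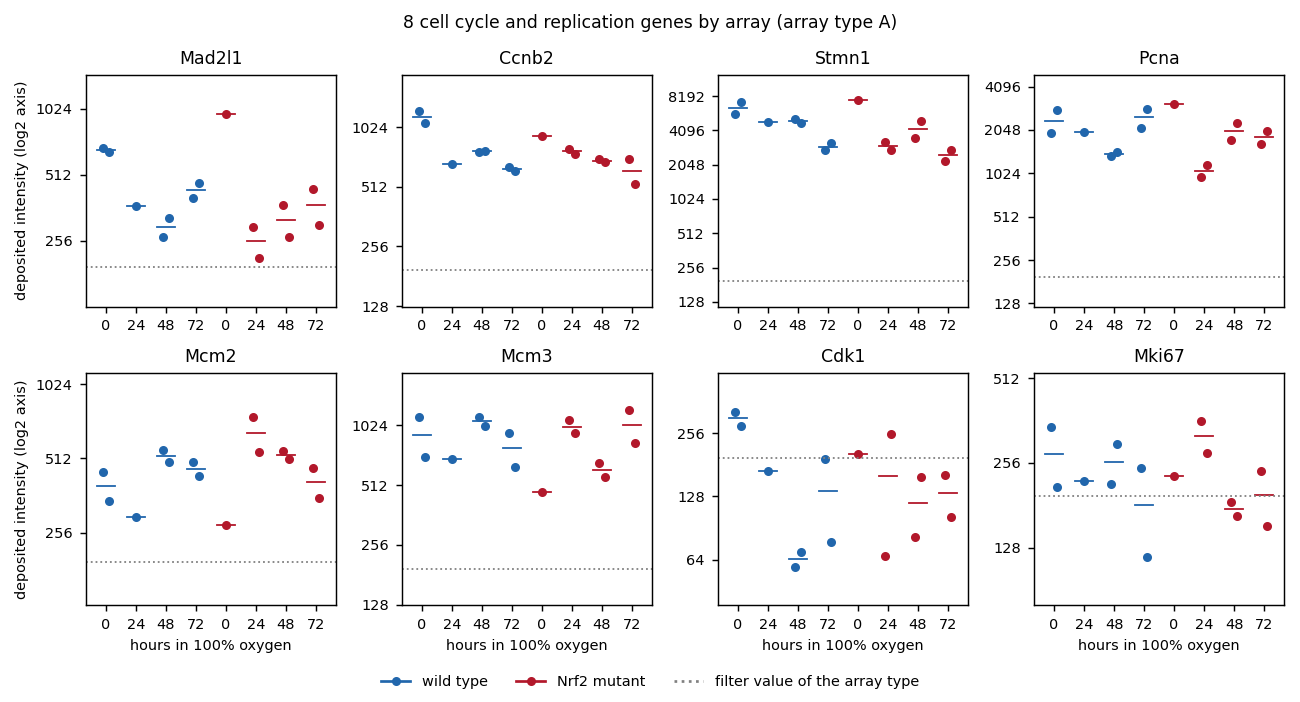
Deposited intensity of 8 members on each array of type A, by hours in 100% oxygen, wild type in blue and Nrf2 mutant in red; points are arrays, short lines group means, the dotted line the filter value, and the y axis is log2. Mad2l1 is highest on the 0 h arrays of both genotypes, and Mcm2 is lowest on the single mutant 0 h array at 275.

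In the Nrf2 mutant, more members passed against the mutant's own 0 h group, as did far more of all probe sets. Mad2l1 was lower at all 3 times. Its intensity was 966 on the 0 h array, 296 and 215 at 24 h, 373 and 268 at 48 h, and 441 and 301 at 72 h. The falls were 3.15-fold, 2.65-fold and 2.35-fold at 24, 48 and 72 h (log2 -1.66, -1.40 and -1.23, each ± 0.26, adjusted p = 0.00155, 0.00529 and 0.0075 by limma). Against wild type at 0 h they were log2 -1.17, -0.92 and -0.75 (adjusted p = 0.00868, 0.0315 and 0.0453 by limma), so that Mad2l1 passed at each time with either baseline.

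Stmn1 was lower at all 3 times as well. Its intensity was 7535 on the 0 h array, 3234 and 2734 at 24 h, 3531 and 4906 at 48 h, and 2226 and 2752 at 72 h. The falls were 2.49-fold, 1.79-fold and 2.98-fold (log2 -1.32, -0.84 and -1.58, each ± 0.26, adjusted p = 0.00455, 0.0452 and 0.00175 by limma). Against wild type at 0 h, 24 h (log2 -1.09, adjusted p = 0.0105) and 72 h (log2 -1.35, adjusted p = 0.0023) passed by limma and 48 h did not (log2 -0.62, adjusted p = 0.115).

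Pcna was lower at 24 h. Its intensity in the mutant was 3092 on the 0 h array, 958 and 1176 at 24 h, 1740 and 2279 at 48 h, and 1639 and 2000 at 72 h. The 24 h arrays were the lowest of all arrays of both genotypes. The fall was 2.78-fold (log2 -1.48 ± 0.29, adjusted p = 0.00445 by limma), and it was log2 -1.08 against wild type at 0 h (adjusted p = 0.0171 by limma). At 48 h (log2 -0.61) and 72 h (log2 -0.75, adjusted p = 0.0906) it did not pass. Ccnb2, with 926 at 0 h, 795 and 750 at 24 h, 703 and 683 at 48 h, and 706 and 528 at 72 h, did not pass against the mutant's own 0 h array (log2 -0.54, adjusted p = 0.0847 at 72 h by limma). Against wild type at 0 h it was lower at 48 h (log2 -0.67, adjusted p = 0.0407) and at 72 h (log2 -0.83, adjusted p = 0.00906) by limma.

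The only members that were higher at any time were 2 subunits of the MCM helicase. Mcm2 was 275 on the mutant 0 h array, 756 and 541 at 24 h, 549 and 510 at 48 h, and 470 and 355 at 72 h. The rise at 24 h was 2.03-fold (log2 1.02 ± 0.25, adjusted p = 0.0132 by limma), and 48 h came close (log2 0.78, adjusted p = 0.0522). Mcm3 was 473 at 0 h, 1086 and 932 at 24 h, 661 and 564 at 48 h, and 1222 and 830 at 72 h. It was 1.97-fold higher at 24 h (log2 0.98 ± 0.32, adjusted p = 0.0463) and at 72 h (log2 0.98, adjusted p = 0.04995) by limma. For both genes the mutant 0 h array was the lowest of all 14. Against wild type at 0 h neither was called (Mcm2 log2 0.61, adjusted p = 0.0863, and Mcm3 log2 0.16, adjusted p = 0.761, at 24 h, and Mcm3 log2 0.16, adjusted p = 0.762, at 72 h by limma). Of the other subunits, Mcm4 had log2 0.84 (adjusted p = 0.0588), Mcm7 0.41, Mcm5 0.22 and Mcm6 -0.96 (adjusted p = 0.135) at 24 h, none called by limma.

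Cdk1 in the mutant was 204 at 0 h, 67.0 and 255 at 24 h, 81.7 and 157 at 48 h, and 162 and 103 at 72 h. Its arrays at 24 h lay on both sides of the 0 h array (log2 -0.36, and -0.44 at 72 h). Mki67 was 229 at 0 h, 360 and 278 at 24 h, 185 and 166 at 48 h, and 240 and 153 at 72 h. Neither passed at any mutant time (log2 0.36, adjusted p = 0.489 at 24 h and -0.18 at 72 h for Mki67 by limma).

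In all, the mutant had 3 members lower and 2 higher at 24 h, 2 lower and 0 higher at 48 h, and 2 lower and 1 higher at 72 h by limma. Limma called 24.4% of all probe sets at 24 h (12.1% lower and 12.2% higher), 17.9% at 48 h (8.27% and 9.61%) and 21.5% at 72 h (10.5% and 11.0%), against 16.1%, 6.45% and 9.68% of the members. The members' share was thus below the background at each time, and the difference in shares was not tested. Against wild type at 0 h the counts were 3, 2 and 3 lower and 0 higher, beside 10.2%, 6.45% and 12.9% of all probe sets. The median log2 difference of the tested members from the mutant's own 0 h was -0.06, -0.11 and -0.07 at 24, 48 and 72 h, against -0.03, -0.02 and -0.03 for all probe sets. From 24 h to 72 h in the mutant 0 members were called (background 5.05%), and 3 had an unadjusted p under 0.05 (background 20.1%).

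The counts in the mutant rest on replicate 1b of its 0 h group, the only type A array there. Without it the 21 members on type A have no value, and 0 of the 10 on type C were called at each time. Of 13 tested squamous epithelium markers, 6, 6 and 8 were lower at 24, 48 and 72 h, and of 8 skeletal muscle markers 6 were lower at each. The count at 48 h was also 1 in place of 2 without replicate 1a of mutant 0 h or 48 h, or either replicate of wild type 48 h or 72 h, where Stmn1 no longer passed.

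The remaining tested members were not called at any time in either genotype, from limma as above. Among the M phase genes, the cyclin gene Ccna2 had intensities of 267 to 865 over the arrays and values below 0 in all 6 comparisons with 0 h, the lowest at 24 h in the mutant (log2 -0.73, adjusted p = 0.192). Cdc20, which activates the ubiquitin ligase that ends mitosis, spanned 321 to 695, with log2 -0.62 in wild type at 72 h (adjusted p = 0.134) and 0.01 in the mutant. The mitotic kinase genes Plk1 and Nek2 spanned 270 to 730 and 263 to 443. Aurkb, a kinase gene of chromosome attachment, had its lowest value in the mutant at 24 h (log2 -1.31, adjusted p = 0.0582). Its other tested probe set, above the filter value on 3 of 14 arrays, went the other way there (log2 0.48, adjusted p = 0.606 by limma). Ube2c, the ubiquitin carrier of mitotic exit, was above the filter value on only 5 of its 14 arrays. Cenpa, the centromere histone gene, was 141 to 529, with log2 0.65 in the mutant at 24 h (adjusted p = 0.192).

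Of the genes that start S phase, E2f1 lay above the filter value on 4 of 14 arrays and did not exceed 231. The G1/S cyclin genes Ccne1 and Ccne2 spanned 439 to 1188 and 1941 to 3398, the licensing factor gene Cdc6 spanned 152 to 340, and the helicase factor gene Cdc45 spanned 354 to 1729. Of these, the value farthest from 0 was that of Cdc45 in wild type at 72 h (log2 -0.84, adjusted p = 0.513 by limma). In the DNA synthesis group, the ligase gene Lig1 had log2 0.68 (adjusted p = 0.129) and the ribonucleotide reductase gene Rrm1 log2 0.65 (adjusted p = 0.239) in the mutant at 24 h by limma. Pola1, the polymerase alpha gene, lay above the filter value on 3 of 14 arrays and the thymidylate synthase gene Tyms on 2 of 16. For Tyms this holds only for the probe set used, since 2 others annotated to both Tyms and Tyms-ps were left out.

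**Figure D3:**
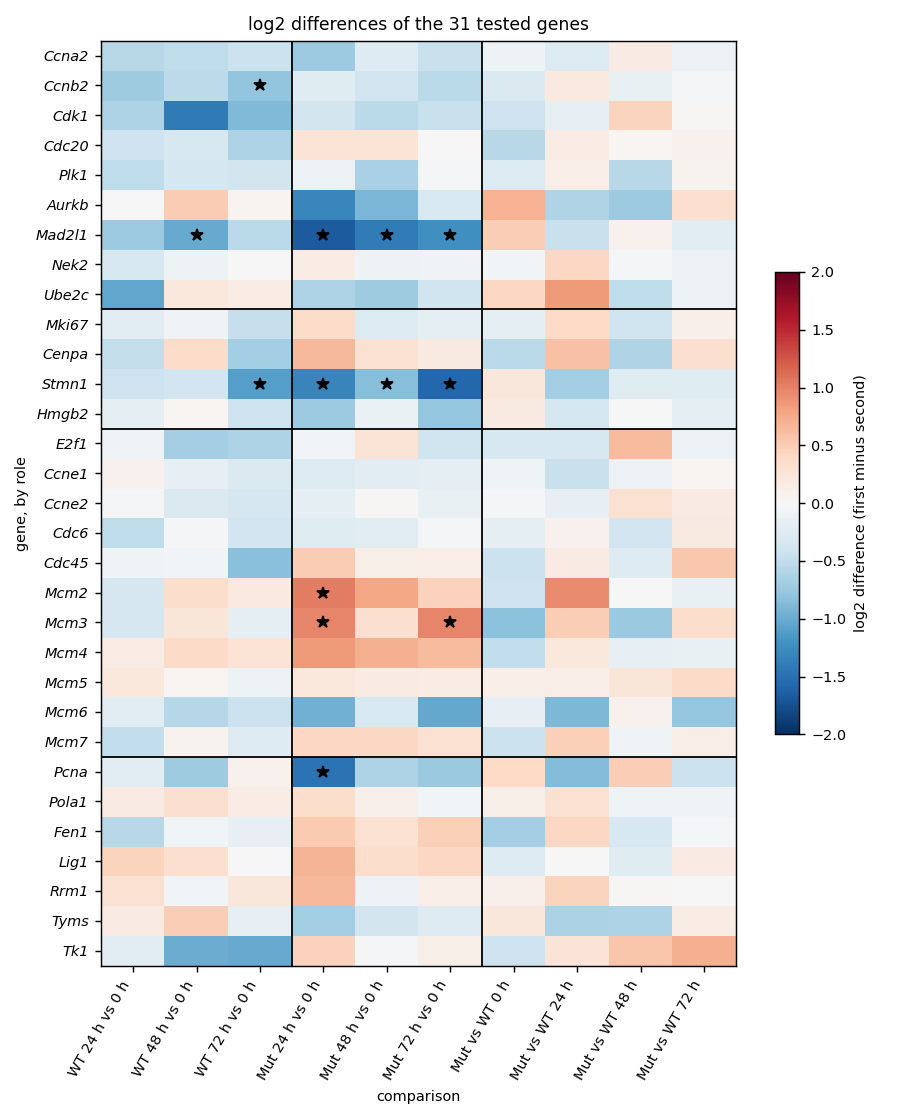
Log2 differences of the 31 tested members (rows, grouped by role: M phase, chromosome structure and proliferation, S phase entry and origins, DNA synthesis) in 10 comparisons (columns); red is higher and blue lower in the first group named, and a star marks an adjusted p under 0.05. Stars fall on 6 genes, 3 in the wild type columns and 10 in the mutant columns, with 0 in the genotype columns.

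Whether the genotypes differed was asked at each time. No member was called at 0, 24, 48 or 72 h, where limma called 2.75%, 0.157%, 0.376% and 0.820% of all probe sets. At an unadjusted p under 0.05 there were 2, 3, 1 and 1 members, against 17.5%, 9.76%, 9.01% and 9.68% of all. The 2 at 0 h were Fen1, the flap endonuclease that trims Okazaki fragments (log2 -0.67, adjusted p = 0.168), and Mcm3 (log2 -0.82, adjusted p = 0.213), both lower on the mutant array by limma. At 24 h Mcm2 was 756 and 541 in the mutant and 296 in wild type (log2 0.94, adjusted p = 0.211), and Pcna was 958 and 1176 against 1995 (log2 -0.86, adjusted p = 0.352), without overlap but not called by limma. In the mean over 24, 48 and 72 h, 0 members were called (background 1.25%) and 2 had an unadjusted p under 0.05 (background 11.0%). They were Stmn1 (log2 -0.39, adjusted p = 0.262) and Tk1 (log2 0.51, adjusted p = 0.27) by limma. The other tested probe sets of Tk1 had log2 0.05, 0.36 and -0.38 in this mean, none called. Limma's F test over the 3 oxygen times called 0 members (background 1.23%), with 3 at an unadjusted p under 0.05 (background 12.0%).

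The difference between genotypes in the change from 0 h was tested as well, in contrasts added after seeing the data. It was called for 0 members at 24, 48 and 72 h, beside 1.93%, 0.652% and 1.36% of all probe sets. At an unadjusted p under 0.05 there were 8, 2 and 3 members, against 16.8%, 11.9% and 14.2% of all. At 24 h Mcm2 had the smallest adjusted p (log2 1.36 ± 0.35, adjusted p = 0.079 by limma), and Pcna had log2 -1.25 (adjusted p = 0.145). A call at a time in one genotype and not the other, such as those of Ccnb2, Pcna, Mcm2 and Mcm3, is therefore not shown to differ between genotypes. The difference in the step from 24 h to 72 h was called for 0 members (background 0.112%), with 1 at an unadjusted p under 0.05 (background 7.39%).

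For 3 members the choice of probe set decided a call. Mcm5 was represented by a bright probe set of type C whose identifier ends in r, a mark of probes that missed a design rule, with intensities of 7887 to 12071 on all arrays and no call. Its next probe set, on type A and without such a letter, was 939 and 976 at 0 h in wild type, 574 and 642 at 48 h, and 501 and 538 at 72 h. The arrays at each time lay below those at 0 h (log2 -0.60 ± 0.15, adjusted p = 0.0417 at 48 h, and -0.79 ± 0.15, adjusted p = 0.0105 at 72 h, by limma). Hmgb2, a chromatin protein of dividing cells, differed widely between replicates on its brightest probe set, for example 209 and 627 at 0 h in wild type. On the next probe set it was 395 on the mutant 0 h array, 165 and 166 at 24 h, 63.0 and 89.1 at 48 h, and 155 and 237 at 72 h, lower at each time by limma (adjusted p = 0.013, 0.00128 and 0.0306). Mcm3 was called on a probe set whose identifier has the letter s, a mark of probes shared between transcripts, and its other probe set was not called at 24 h (log2 0.38, adjusted p = 0.319) or 72 h (log2 0.41, adjusted p = 0.303) by limma. Of the 31 brightest probe sets, 18 had no such letter, 8 had r, 3 had f, 1 had i and 1 had s.

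**Figure D4:**
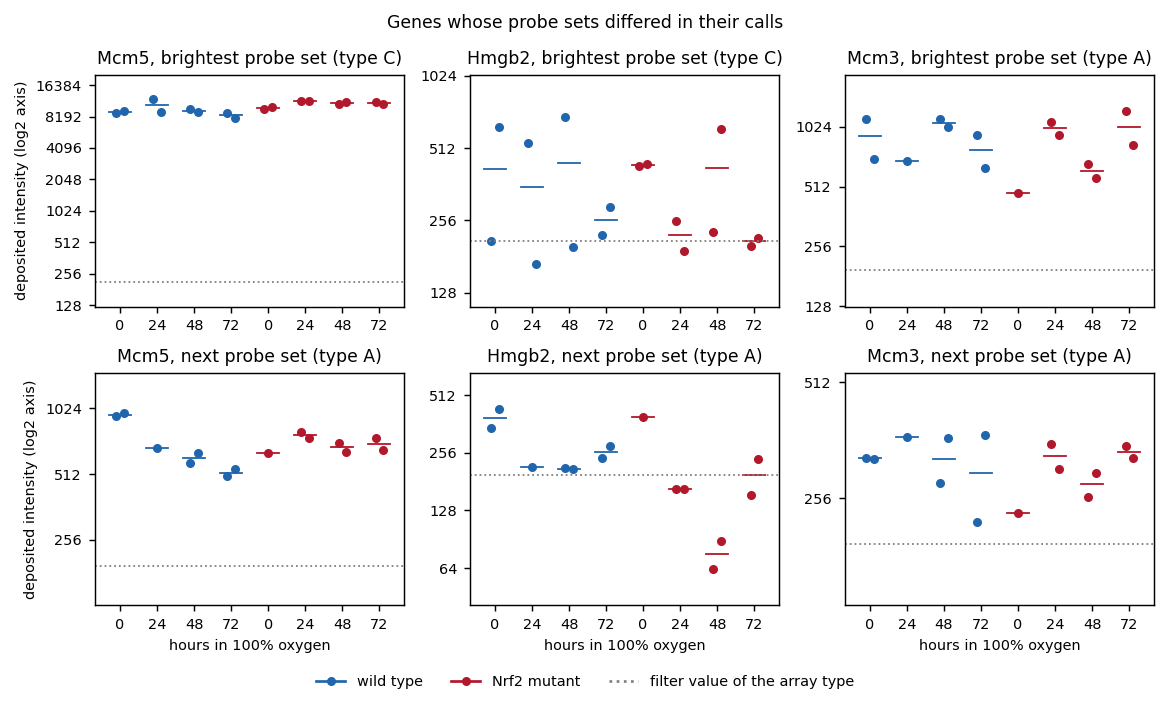
Deposited intensity of the brightest probe set (top) and the next brightest (bottom) of Mcm5, Hmgb2 and Mcm3 on each array, by hours in 100% oxygen, wild type in blue and Nrf2 mutant in red; points are arrays, short lines group means, dotted lines the filter value, and the y axes are log2. The second Mcm5 probe set is lower in wild type oxygen arrays than at 0 h, and the brightest is not.

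Other genes of the cell cycle were read from lists beside the members. Of 31 tested other mitosis genes, 0, 2 and 4 were lower in wild type at 24, 48 and 72 h and 0 were higher. In the mutant 6, 3 and 5 were lower, and 1 was higher at 72 h. Of all probe sets, 3.39% and 3.57% were lower in wild type at 48 and 72 h. The share lower in the mutant was 12.1%, 8.27% and 10.5% of all probe sets at 24, 48 and 72 h. Differences between the list and these shares were not tested. Racgap1, a regulator of cytokinesis, lay above the filter value on 2 of 14 arrays, both of wild type at 0 h (196 and 237). It counts among the 4 at 72 h but was tested only through that 0 h group, so its call carries no weight. The condensin gene Smc4 was lower in wild type at 72 h (log2 -1.0, adjusted p = 0.0214 by limma). Cks2, a partner of CDK1, was lower in the mutant at 24, 48 and 72 h (log2 -1.88, -1.48 and -1.62, adjusted p = 0.00137, 0.00681 and 0.00303 by limma). The median of this list was log2 -0.34, -0.41 and -0.40 in wild type and -0.31, -0.44 and -0.40 in the mutant. Over all probe sets it was -0.06, -0.03 and -0.06 in wild type and -0.03, -0.02 and -0.03 in the mutant.

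Of 28 tested other replication genes, 0, 2 and 1 were lower in wild type and 0 were higher. In the mutant 4, 3 and 2 were lower and 2 were higher at each time. The shares of all probe sets that were lower are those given for the mitosis genes. Higher in the mutant were 12.2%, 9.61% and 11.0% of all probe sets at 24, 48 and 72 h. Rpa3, a subunit of the protein that coats single-stranded DNA, was lower in wild type at 48 h (log2 -1.06, adjusted p = 0.0447) and 72 h (log2 -1.15, adjusted p = 0.0299) by limma. In the mutant it was 2234 on the 0 h array and 145 to 275 in oxygen (log2 -3.04, -3.02 and -3.10), and it was higher in the mutant than in wild type at 0 h (log2 1.87, adjusted p = 0.0188 by limma). Gmnn, which encodes the replication licensing inhibitor geminin, lay above the filter value on 2 of 14 arrays, both at 0 h (348 in wild type and 288 in the mutant). Its oxygen arrays lay at 24.2 to 106. It counts among the 2 lower in the mutant at 72 h but was tested only through the 0 h arrays, so its call carries no weight. Hells, a chromatin remodeller, was higher in the mutant at 24 h (log2 1.06, adjusted p = 0.00468), and the initiation factor gene Mcm10 at 48 h (log2 1.47, adjusted p = 0.00363) by limma.

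Genes that hold the cycle or start it were read from 2 further lists. Of 19 tested p53 targets and arrest genes, 2, 4 and 7 were higher in wild type at 24, 48 and 72 h, with 0, 1 and 1 lower. In the mutant 4, 6 and 9 were higher, with 1, 0 and 2 lower. Of all probe sets, limma called 1.72%, 6.64% and 7.83% in wild type in either direction. The share higher in the mutant was 12.2%, 9.61% and 11.0%. Cdkn1a, the gene of the kinase inhibitor p21, was 477 and 424 at 0 h in wild type, 2600 at 24 h, 3828 and 3564 at 48 h, and 4779 and 4311 at 72 h. In the mutant it was 417, then 2133 and 2302, 5890 and 3828, and 7206 and 7083. All oxygen arrays lay above all 0 h arrays, and the rise at 72 h was 8.74-fold in wild type and 14.6-fold in the mutant (log2 3.13 ± 0.20 and 3.87 ± 0.24, adjusted p = 3.1e-05 and 8.1e-06 by limma). Of 16 tested G1 cyclins, kinases and pocket proteins, 1 was higher and 1 lower in wild type at 72 h, and 2 higher and 1 lower in the mutant. Ccnd1, the cyclin D1 gene of G1, was 1897 and 2580 at 0 h in wild type and 693 and 692 in the mutant (log2 -1.54, adjusted p = 0.0138 by limma), and 3169 and 2959 against 5927 and 6574 at 72 h. It rose 7.95-fold in the mutant at 72 h (log2 2.99 ± 0.27, adjusted p = 3.1e-05 by limma). Myc, a growth factor response gene, was higher at 72 h in wild type (log2 1.77, adjusted p = 0.000743) and the mutant (log2 2.0, adjusted p = 0.000421) by limma. Cdkn2c, a G1 kinase inhibitor gene, was lower at 72 h in wild type (log2 -1.50, adjusted p = 0.000696) and the mutant (log2 -1.52, adjusted p = 0.000731) by limma.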

How the data were processed

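Total RNA of mouse lung was measured on 46 arrays of 3 types. The values are linear intensity values as the authors deposited them, 1 per probe set and array. The software behind them is not named in the labels. The mean after trimming 2% lay between 800.2 and 800.5 on every array, so a common scaling had been applied, and it was kept. The number of arrays limits the precision.

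Before taking log2, a constant was added per array type, its 25th percentile (78.1 for A, 126 for B, 106 for C), which understates folds of dim genes. Control probe sets were removed, as were probe sets with fewer than 2 arrays over the 40th percentile, and 26833 stayed. Each array type had its own limma model (version 3.58.1, R 4.3.3) with a mean for every group. Tests were two-sided with Benjamini-Hochberg adjustment over the 3 types together, called under 0.05. The script was tested on simulated data.

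Symbols came from the platform annotation, and sequences and positions from RefSeq tables of GRCm38.p6. Values per array are given for members called in a comparison with groups that do not overlap and for Mki67, Pcna, Cdk1 and Mcm2. Other lists are represented by some of the up to 3 called genes with the smallest adjusted p in a comparison. The values singled out of all other members were chosen after they were seen. The members and lists were chosen with earlier results of these data known. Alternatives were a floor, quantile normalization, no filter and a stricter filter, fits of the compared groups alone, a replicate block, trended variances, type A alone, other probe sets, another baseline and leaving out each of 16 replicates in turn.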

Additional observations from a re-analysis of the deposited data

Results flagged for a closer look

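The change from 0 h differed between genotypes, mutant minus wild type, for 4 genes of the other cell cycle and arrest lists, by limma's test of that difference. Marker lists of cell types held further calls, among them 5 neutrophil genes at 48 h and 5 squamous epithelium genes at 72 h. Of all probe sets, 1.93%, 0.652% and 1.36% were called in that difference at 24, 48 and 72 h. Ccnd1 differed by log2 2.14 at 24 h, 2.08 at 48 h and 2.54 at 72 h (adjusted p = 0.0188, 0.035 and 0.0087). Rpa3 differed by log2 -2.41 at 24 h (adjusted p = 0.0327). Sesn2, a p53 target that restrains growth signalling, differed by log2 1.75 at 24 h (adjusted p = 0.0375). Sfn, which encodes the arrest protein 14-3-3 sigma and is also abundant in squamous epithelium, differed by log2 -2.58 at 72 h (adjusted p = 0.0107). Each of these contains the mutant 0 h arrays, which stood apart, and their part in the differences was not tested.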

How the results depend on the processing

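Mad2l1 (at 24 and 48 h), Pcna (at 24 h) and Stmn1 (at 24 and 72 h) in the mutant were called under all 9 alternatives and in all 15 fits without 1 replicate that gave a value, while Mcm3 was called in 4 of 9 and 8 of 15 at 24 h and in 4 and 5 at 72 h, and Stmn1 at 48 h in 3 and 7. The count of members called in wild type at 48 h, 1 as reported, was 2 under each of quantile normalization, the stricter filter, only the compared groups, the replicate block, trended variances, type A alone, any probe set of a gene and probe sets without a letter. Fitting only the compared groups gave 0 in wild type at 72 h in place of 2, and 3, 1 and 1 in the mutant at 24, 48 and 72 h in place of 5, 2 and 3; the baseline of wild type at 0 h gave 3 at 24 h. The F test over wild type times, 1 as reported, gave 0 with a floor, no filter or only the compared groups, 2 with quantile normalization, any probe set or probe sets without a letter, and 3 with the stricter filter, the replicate block, trended variances or type A alone. The genotype difference in the change at 24 h gave 1 (Mcm2) with the stricter filter and on type A alone, in place of 0. The cause of these moves was not tested.

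Same-numbered replicates correlated in their deviations at a median r of 0.096, 0.126 and 0.04 on types A, B and C. The highest r was 0.368, 0.245 and 0.124, and 7 of 15, 18 of 28 and 2 of 28 pairs of groups lay over 0.1. Whether the numbers pair the samples is therefore not settled, and the main fit did not pair them. The replicate block gave 1 call in the mutant from 72 h against 24 h, in place of 0, and 6, 2 and 4 in the mutant at 24, 48 and 72 h.

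Leaving out 1 replicate gave 0 to 2 calls in wild type at 48 h, 0 to 2 at 72 h and 0 to 2 in the F test, and 0 to 6, 0 to 2 and 0 to 4 in the mutant at 24, 48 and 72 h. The 0 in the mutant came only without replicate 1b of mutant 0 h, where the members on type A have no value. Values that changed sign were Mki67 in wild type at 48 h (log2 -0.34 to 0.21) and in the mutant at 72 h (-0.41 to 0.0473), Pcna in wild type at 72 h (-0.18 to 0.34), Cdk1 in the mutant at 24 h (-0.96 to 0.24), and Sfn in the mutant at 72 h, log2 0.0756 against wild type at 0 h. Few arrays and dim signal limit Cdk1, Mki67 and the 12 untested genes.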
